A study of Mus musculus with 2 samples.

Results

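The 40 S phase replication genes described here are mouse counterparts of genes that Seurat, a single-cell analysis package, uses to score S phase. They were taken from a fixed list, and all 40 were among the 15046 genes of the count table. The list itself uses no measured value, although it was taken up with earlier results of these data known. The deposited cell cycle phase of each cell was computed from the members, so their mean profile over that phase is built in and only differences between genes carry information. Profiles over phase are therefore given from scores computed again with the gene in question left out, although the other members still counted. With no gene left out, that scoring used 42 S phase genes, the 40 members among them.

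The cells were adult mouse neural stem/progenitor cells (NSPCs) grown from the subventricular zone (SVZ) of male C57/Bl6 mice aged 6-8 weeks. They were kept as 1 proliferating line that stably carries a retroviral PLIN2-GFP construct, a GFP-tagged coat protein of lipid droplets. All groups share this line and construct, and the cells of both categories were untreated. The 25% of NSPCs with the lowest and the 25% with the highest GFP signal (low and high PLIN2-GFP) were sorted into 2 384-well plates, and the single cells were sequenced by SORT-seq. Plate 1 contributed 95 low and 84 high PLIN2-GFP NSPCs, and plate 2 contributed 72 and 53. Of these, 77 were assigned to S, 95 to G2/M and the rest to G1 by the authors. The plates are the only replicates, and p-values measure the spread between these sums of cells of 1 line, which may be technical. High and low cells never shared a row of wells, so category and row cannot be told apart.

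DNA replication is prepared in G1, when the origin recognition complex, CDC6 and CDT1 load the MCM helicase onto origins. It starts in S phase, when CDC45 and the GINS complex switch the helicase on. Polymerase alpha with primase starts each strand, the clamp PCNA holds polymerase delta on the template, RPA covers single strands, FEN1 trims flaps, and ribonucleotide reductase and thymidylate synthase supply the nucleotides. Many of these genes are known targets of E2F transcription factors, which are released from the retinoblastoma protein late in G1. Genes that act in G2 and mitosis are often controlled through a different promoter element, the cell cycle genes homology region (CHR).

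The cells held 1170 to 34630 estimated UMIs each, with a median of 10774, and the sums used in the tests held 186258 to 413379 UMIs per plate, category and phase and 801933 to 1029023 per plate and category. High PLIN2-GFP cells were deeper, with a median of 11709 against 7856 UMIs on plate 1 and 14729 against 11955 on plate 2. The 5 NSPC markers (Fabp7, Vim, Nes, Hes1 and Sox2) summed to 6294 to 6404 UMIs per 1000000 (CPM) in the plate and category sums. The 3 astrocyte markers summed to 8.17 to 24.3 CPM and 3 neuronal markers to 2.92 to 16.3 CPM, while Pecam1 of endothelium was 0.583 to 3.12 CPM. Markers of microglia and of oligodendrocytes were not analysed here. The members had 48.5 (Slbp) to 1349 (Pcna) counts over all cells, and 10 members had fewer than 100. The counter divides a UMI that matches several genes, so that some counts lay in values that were not whole (tolerance 1e-06). These were 52.6% of the counts of Slbp, 26.9% of those of Casp8ap2 and 24.4% of those of Atad2, so that their values are uncertain. The next share among the members was 16.1% (Dtl).

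With the phase scored without the gene, 37 of the 40 members passed the filter on low counts and all 37 were called higher in S than in G1 (edgeR quasi-likelihood test, Benjamini-Hochberg adjusted p under 0.1, the level of the study), with a median log2 fold change of 2.30 and a range of 1.06 to 4.07. In the same fit with all scoring genes in place, 9.51% of all genes tested were called higher and 7.22% lower, with a median of -0.02. The tested members differed in how far they rose and not in direction. The shared direction is partly built in, as the other members still scored the phase. Between G2/M and G1, 26 members were called higher and 0 lower, with a median of 1.38, against 11.1% and 10.5% of all genes. Between S and G2/M, 27 were called higher in S and 0 lower, with a median of 1.03, against 3.35% and 3.68% of all genes. Rfc2, Slbp and Blm were too low to be tested. A gene that is high only in S can pass the filter through its S sums, and without any filter 38 of all 40 were called higher in S.

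**Figure D1:**
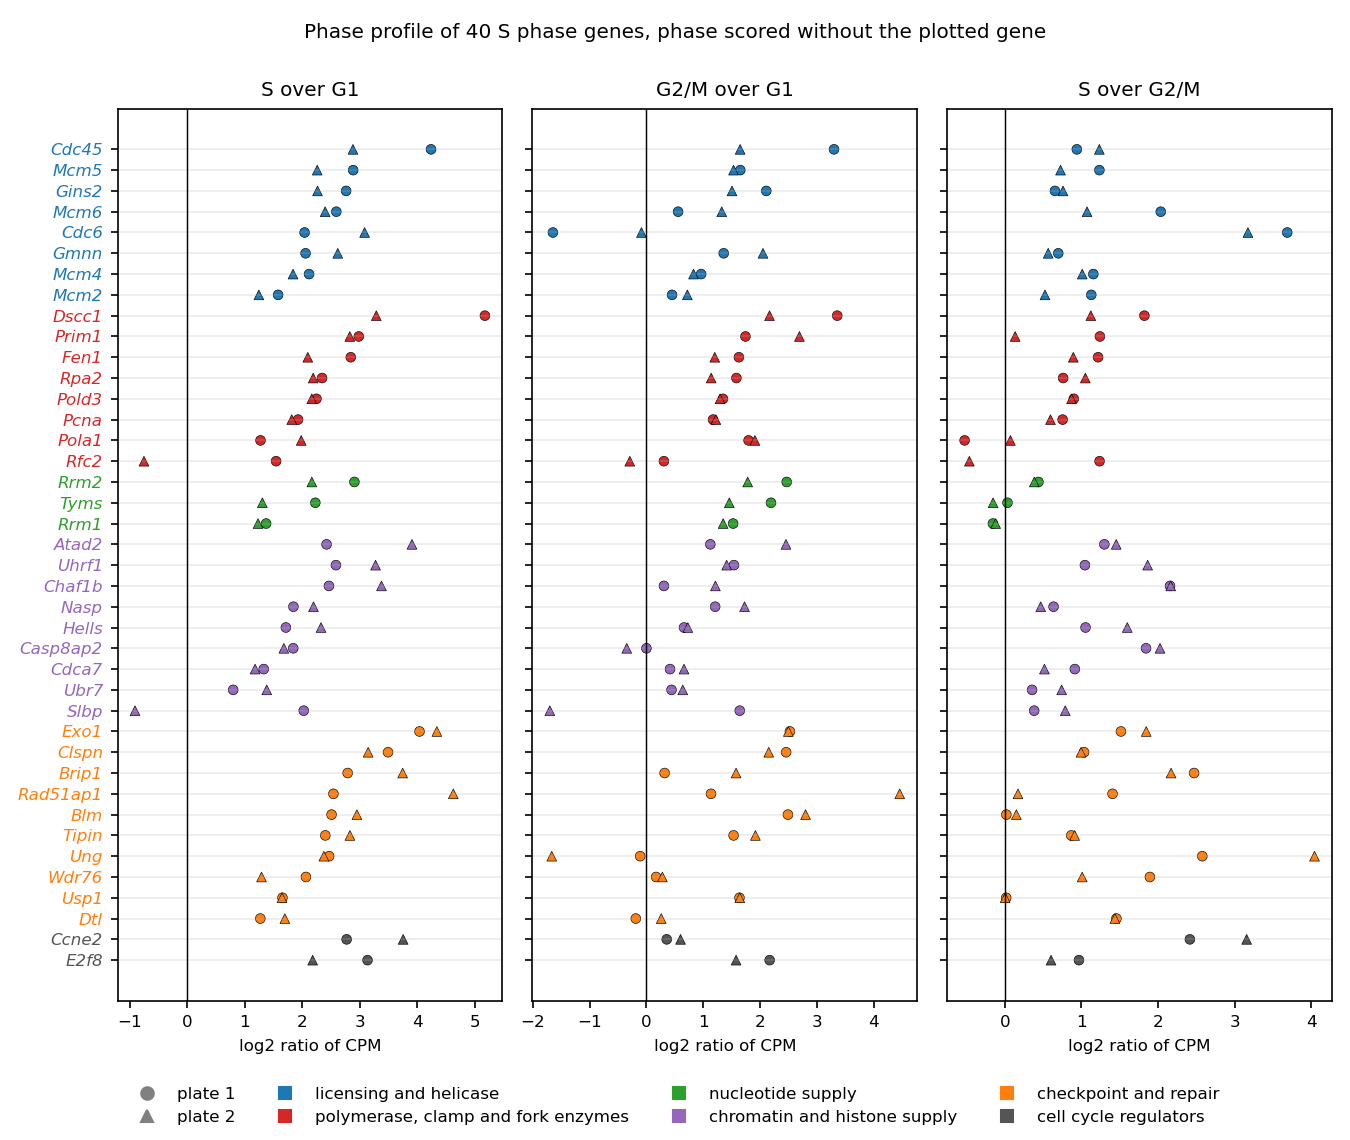
Log2 ratio of CPM between phases (x axis) for each of the 40 members (y axis), with the phase scored without the plotted gene, on plate 1 (circles) and plate 2 (triangles). Colours mark the role group. For 38 members both plates lie above 0 for S over G1, and for 36 both lie above 0 for S over G2/M.

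The members with the largest rise from G1 to S, among those with at least 100 counts, were Exo1, Cdc45, Clspn and Ccne2. All members are protein-coding genes, and gene positions are those of GENCODE M21 on GRCm38. CPM values by phase are of the summed cells of a plate, both categories together, scaled by TMM factors. Exo1 (chr1:175880581-175913489, plus strand), an exonuclease of mismatch repair and end resection, was 5.21 and 4.19 CPM in G1, 85.8 and 84.96 CPM in S and 29.99 and 23.6 CPM in G2/M on plates 1 and 2. The log2 fold change from G1 to S was 4.07 (SE 0.43, adjusted p = 1.06e-10). Cdc45 (chr16:18780447-18811987, minus strand), which activates the MCM helicase, was 3.89 and 12.6 CPM in G1, 73.6 and 92.6 CPM in S and 38.3 and 39.4 CPM in G2/M. The change was 3.40 (SE 0.39, adjusted p = 2.19e-09). Both genes were lowest in G1 and highest in S on both plates, and the phases did not overlap. By the deposited phase, the G1 sums per plate and category held only 1 to 3 counts of Exo1 and 0 to 3 of Cdc45. The size and order of their changes are therefore uncertain. Clspn (chr4:126556935-126593903, plus strand) encodes claspin, which links stalled forks to the checkpoint kinase, and was 9.34 and 14.6 CPM in G1, 105.1 and 128.9 CPM in S and 51.3 and 64.7 CPM in G2/M. The change was 3.30 (SE 0.32, adjusted p = 1.49e-11). Ccne2 (chr4:11191351-11204779, plus strand), cyclin E2, which drives S phase entry with CDK2, was 23.5 and 12.9 CPM in G1, 160.2 and 174.7 CPM in S and 30.03 and 19.6 CPM in G2/M. The change was 3.14 (SE 0.28, adjusted p = 9.41e-13). Ccne2 differed from the other 3 in G2/M. Exo1, Cdc45 and Clspn had the 3 largest rises from G1 to G2/M of all members with 100 counts, at 2.40 (SE 0.54, adjusted p = 8.12e-04), 2.29 (SE 0.45, adjusted p = 1.31e-04) and 2.27 (SE 0.37, adjusted p = 3.73e-06) on the log2 scale. Ccne2 was not called against G1, at 0.40 (SE 0.40, adjusted p = 0.577). On plate 2 alone the rises of Exo1 and Cdc45 to G2/M were not called (adjusted p = 0.147 and 0.152, edgeR).

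The smallest rises from G1 to S were those of Ubr7, Cdca7, Rrm1 and Mcm2. Ubr7 (chr12:102757967-102777707, plus strand), a ubiquitin ligase that acts on histones, was 43.1 and 30.4 CPM in G1, 74.9 and 79.1 CPM in S and 58.5 and 47.3 CPM in G2/M. This was a log2 fold change of 1.06 (SE 0.27, adjusted p = 0.00461). Cdca7 (chr2:72476159-72486893, plus strand), a partner of the chromatin remodeller HELLS, was 70.5 and 81.1 CPM in G1, 177.1 and 183.5 CPM in S and 93.96 and 128.2 CPM in G2/M. The change was 1.27 (SE 0.19, adjusted p = 3.06e-06). Mcm2 (chr6:88883474-88898780, minus strand), a subunit of the helicase, was 64.1 and 69.1 CPM in G1, 191.6 and 163.7 CPM in S and 87.6 and 113.8 CPM in G2/M. The change was 1.39 (SE 0.21, adjusted p = 1.62e-06). These genes had a clear level in G1 and rose from it without overlap between G1 and S on either plate. In G2/M, Ubr7 was not called against G1, at 0.47 (SE 0.29, adjusted p = 0.294). Its change from G1 to S was not called on plate 1 alone, at 0.80 with adjusted p = 0.259, nor was that of Cdca7 with cells thinned to 5000 UMIs, at 0.74 with adjusted p = 0.112.

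Of the 3 nucleotide supply genes, 2 showed no detectable difference between S and G2/M. The log2 fold changes of S over G2/M were -0.10 to 0.45 in this group and 0.69 to 3.39 in the 8 licensing and helicase genes. This difference between the groups was not tested. Rrm1 (chr7:102441695-102469771, plus strand), the large subunit of ribonucleotide reductase, was 145.95 and 177.7 CPM in G1, 377 and 417 CPM in S and 420.1 and 453 CPM in G2/M. Its level in S was -0.10 (SE 0.12, adjusted p = 0.800) on the log2 scale relative to G2/M, with a 95% interval of -0.34 to 0.15. Tyms, thymidylate synthase, was 22.4 and 48.1 CPM in G1, 104.7 and 118.9 CPM in S and 102.2 and 132.2 CPM in G2/M, with a difference between S and G2/M of -0.07 (SE 0.21, adjusted p = 0.926) and an interval of -0.47 to 0.34. For both genes G1 was lower than either phase on both plates. Rrm2 (chr12:24708241-24714146, plus strand), the small and regulated subunit of the reductase, rose more than Rrm1 from G1, at 48.7 and 72.9 CPM in G1, 366 and 327 CPM in S and 269.6 and 250.8 CPM in G2/M, and was called higher in S than in G2/M, at 0.45 (SE 0.14, adjusted p = 0.0578). Beyond this group, Usp1, which removes ubiquitin from PCNA, and Pola1, the catalytic subunit of polymerase alpha, had S against G2/M differences of 0.05 (SE 0.19, adjusted p = 0.941) and -0.15 (SE 0.28, adjusted p = 0.866).

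Other members fell back further in G2/M. Dtl (chr1:191537356-191575544, minus strand), a substrate receptor of the ubiquitin ligase that degrades CDT1, was 63.8 and 52.7 CPM in G1, 153.9 and 170.9 CPM in S and 56.05 and 63.1 CPM in G2/M, so that G2/M and G1 differed by -0.03 (SE 0.27, adjusted p = 0.960) while S exceeded G2/M by 1.48 (SE 0.23, adjusted p = 4.28e-06). The largest excess of S over G2/M was that of Cdc6, which loads the helicase in G1, at 3.39 (SE 0.57, adjusted p = 2.03e-05), followed by Ung, the uracil glycosylase, at 3.25 (SE 0.50, adjusted p = 3.87e-06), both with fewer than 100 counts and named for these values after they were seen. Cdc6 was 15.6 and 4.19 CPM in G1, 64.3 and 35.5 CPM in S and 4.999 and 3.94 CPM in G2/M, and Ung was 10.7 and 12.5 CPM in G1, 58.9 and 64.96 CPM in S and 9.87 and 3.94 CPM in G2/M. In both genes G2/M was at or below G1 on each plate, and S was the highest phase on both.

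The genes with the most counts gave the most precise values. Pcna (chr2:132249162-132253314, minus strand), the sliding clamp, was 181.8 and 160.8 CPM in G1, 691 and 567 CPM in S and 409.5 and 375 CPM in G2/M. The log2 fold change from G1 to S was 1.90 (SE 0.15, adjusted p = 1.64e-14). Nasp (chr4:116601052-116627941, minus strand), a chaperone of histones H3 and H1, was 82.6 and 58.4 CPM in G1, 296.8 and 267.6 CPM in S and 190.9 and 193.2 CPM in G2/M. The change was 1.97 (SE 0.19, adjusted p = 5.57e-12). Mcm4 (chr16:15623897-15637400, minus strand), a helicase subunit, was 55.9 and 71.2 CPM in G1, 242.6 and 254.7 CPM in S and 108.9 and 126.4 CPM in G2/M. The change was 1.97 (SE 0.19, adjusted p = 2.64e-11). All 3 were highest in S, intermediate in G2/M and lowest in G1 on both plates. Rrm2 rose by 2.51 (SE 0.18, adjusted p = 1.95e-14) and Rrm1 by 1.31 (SE 0.14, adjusted p = 2.32e-09) from G1 to S. These genes encode subunits of the same enzyme, and their intervals, 2.15 to 2.88 and 1.03 to 1.59, did not overlap. The difference between them was not tested.

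By role, all 8 licensing and helicase genes were called higher in S than in G1, with log2 fold changes of 1.39 to 3.40. Mcm2 was lowest and Cdc45 highest. Among them, the MCM genes Mcm4, Mcm5 and Mcm6 changed by 1.97, 2.62 and 2.49, the GINS subunit Gins2 by 2.47 and Gmnn, geminin, which inhibits licensing, by 2.24. Of the 8 polymerase, clamp and fork genes, 7 were tested and called, with 1.68 to 3.91. They include the primase Prim1 at 2.89, the flap endonuclease Fen1 at 2.43, the polymerase delta subunit Pold3 at 2.18, the single-strand binding subunit Rpa2 at 2.23 and the cohesion clamp loader Dscc1 at 3.91. Of the 9 chromatin and histone supply genes, 8 were tested and called, with 1.06 to 2.91. Among these were Uhrf1, which recruits the maintenance methyltransferase, at 2.91, the bromodomain ATPase Atad2 at 2.83, the CAF-1 subunit Chaf1b at 2.81, Hells at 2.00 and Casp8ap2, which acts in histone transcript processing, at 1.80. Of the 10 checkpoint and repair genes, 9 were tested and called, with 1.45 to 4.07. They cover the fork protection gene Tipin at 2.56, the helicase Brip1 at 3.01, Rad51ap1 at 2.92, Wdr76 at 1.72, Ung at 2.30 and Usp1 at 1.67. The repressor E2f8 changed by 2.59. The 3 members not tested were split between the plates or near the floor. Rfc2, a clamp loader subunit, was 17.3 and 21.8 CPM in G1, 50.5 and 12.9 CPM in S and 21.4 and 17.8 CPM in G2/M, so S exceeded G1 on plate 1 only. Slbp, which binds histone transcripts, was 5.27 and 25.7 CPM in G1, 21.5 and 13.6 CPM in S and 16.4 and 7.89 CPM in G2/M, again with opposite directions on the plates. The helicase Blm was 2.64 and 3.96 CPM in G1, 15.02 and 30.6 CPM in S and 14.8 and 27.6 CPM in G2/M, with S above G1 on both.

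Between G2/M and G1 the groups differed in how many of their genes were called. All 3 nucleotide supply genes and all 7 tested polymerase, clamp and fork genes were called higher in G2/M than in G1, as were 6 of 8 licensing and helicase genes, and 4 of 8 tested chromatin genes, 5 of 9 tested checkpoint and repair genes and 1 of 2 cell cycle regulators. The difference between the groups was not tested, and their ranges of log2 fold change overlapped. For example, chromatin and histone supply genes had -0.12 to 1.47 and polymerase, clamp and fork genes 1.16 to 2.43. The median log2 fold changes were 1.81 for nucleotide supply, 1.38 for polymerase, clamp and fork enzymes, 1.21 for licensing and helicase, 1.60 for checkpoint and repair and 0.64 for chromatin and histone supply. On plate 2 alone 17 and on plate 1 alone 20 of the members were called higher in G2/M, against 26 with both plates. For S over G2/M these counts were 14 and 16, against 27.

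Along the S score, the cells of each plate were placed in 4 groups of equal size, 44 or 45 cells on plate 1 and 31 or 32 on plate 2, by the score computed without the gene. From the lowest to the highest quartile, Pcna was 136.5, 245.7, 402 and 725 CPM on plate 1 and 100.5, 277.5, 375 and 654 CPM on plate 2. Rrm1 was 141.4, 269.5, 341 and 436 and 174.01, 327, 369.8 and 507 CPM. Both rose at every step, Pcna more steeply than Rrm1. Ccne2 was 15.7, 18.8, 37.9 and 146.5 and 8.37, 6.84, 55.2 and 189.9 CPM. Exo1 was 0, 20.7, 30.3 and 77.1 and 2.77, 6.90, 33.3 and 95.6 CPM. For these 2 genes most of the rise fell between the third and the fourth quartile. That step was also the largest on both plates for Pcna, Cdc45, Clspn and Atad2, so it does not set Exo1 and Ccne2 apart. Ubr7, at 41.9, 37.9, 63.8 and 77.2 and 33.2, 13.8, 50.8 and 94.03 CPM, had its lowest value in the second quartile on both plates. In all, 32 members rose at every step on plate 1 and 32 on plate 2, 27 of them on both. The highest quartile lay above the lowest for 40 members on plate 1 and 38 on plate 2, the exceptions being Rfc2 and Slbp. Across the cells of a plate, Spearman's rho between the share of a cell's UMIs and the score was highest for Pcna on plate 1, at 0.622, and for Atad2 on plate 2, at 0.760, with Ubr7 at 0.180 and 0.418. Cells of 1 plate share a library, and genes with few counts give low values.

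**Figure D2:**
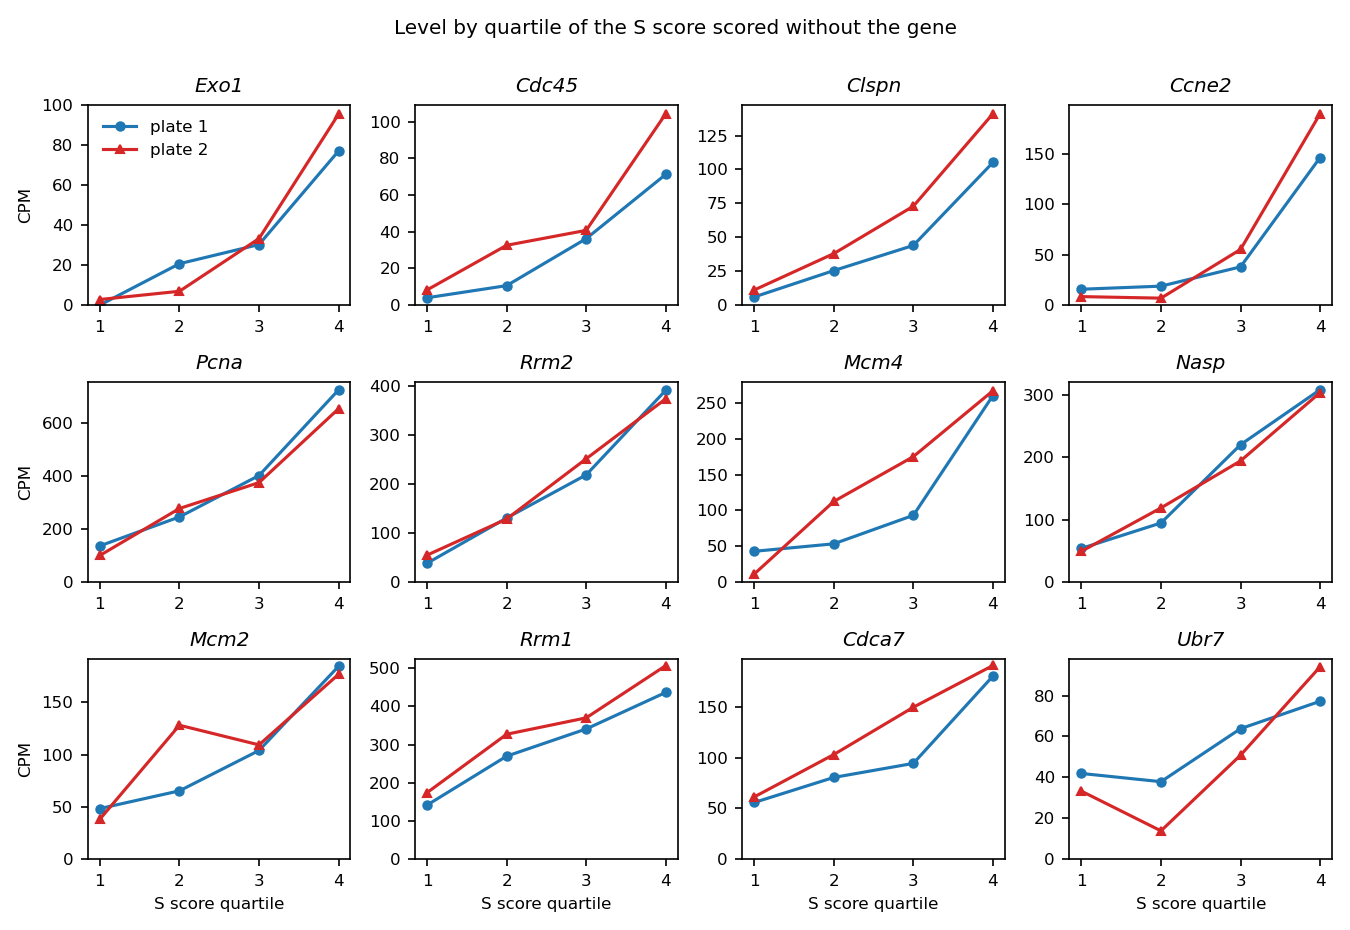
Level in CPM of the quartile's UMIs (y axis) by quartile of the S score computed without the gene (x axis), for 12 members named by the rule, on plate 1 (circles) and plate 2 (triangles). For Exo1, Ccne2, Cdc45, Clspn and Pcna the step from the third to the fourth quartile is the largest on both plates. Rrm1 and Nasp climb at every step on both plates.

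Replication genes that are no part of the score gave a test of the same profile with the deposited phase. Of a list of 54 such genes, 53 were analysed and 38 passed the filter. Among them 30 were called higher in S than in G1 and 0 lower, against 9.68% and 7.71% of all genes, with a median log2 fold change of 1.56 against -0.03 over all genes. Here too a gene that is high only in S can pass the filter through its S sums. These counts therefore hold for the genes that passed and not for the whole list. In G2/M against G1, 23 were called higher and 0 lower (11.6% and 10.6% of all genes), and in S against G2/M 13 were called higher and 1 lower (3.21% and 3.96%). On plate 2 alone and plate 1 alone, 12 and 15 were called higher in G2/M than in G1, and 5 and 4 higher in S than in G2/M. The 1 lower was Dbf4, the activator of the kinase CDC7, at -1.68 (SE 0.23, adjusted p = 4.48e-07).

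The 5 largest changes from G1 to S were those of Ticrr, E2f1, Rfc4, Pold1 and E2f7. Ticrr, which helps to load CDC45, was 5.30 and 3.97 CPM in G1 and 19.1 and 46.5 CPM in S on plates 1 and 2. This was a log2 fold change of 2.80 (SE 0.64, adjusted p = 0.00139). The G1 sums of Ticrr held only 0 to 3 counts per plate and category, and 23.2% of its counts lay in values that were not whole. E2f1, the activating E2F factor, was 13.3 and 7.93 CPM in G1 and 76.5 and 73.1 CPM in S. The change was 2.77 (SE 0.38, adjusted p = 2.20e-07). Neither gene overlapped between the phases. Rfc4, a clamp loader subunit, was 10.6 and 19.8 CPM in G1 and 87.1 and 81.4 CPM in S. The change was 2.61 (SE 0.33, adjusted p = 3.93e-08). Pold1, the catalytic subunit of polymerase delta, was 10.6 and 5.95 CPM in G1 and 61.6 and 48.2 CPM in S. The change was 2.52 (SE 0.46, adjusted p = 6.81e-05). The repressor E2f7 was 7.95 and 5.95 CPM in G1 and 38.2 and 44.9 CPM in S. The change was 2.44 (SE 0.51, adjusted p = 4.59e-04). All 3 were higher in S on each plate. At the other end, the origin recognition subunits Orc4 and Orc5 and the ribonuclease H2 subunit Rnaseh2c did not pass the test. Orc4 was 31.8 and 47.6 CPM in G1 and 36.1 and 19.9 CPM in S. The change was -0.44 (SE 0.36, adjusted p = 0.483). Orc5 was 34.5 and 39.7 CPM in G1 and 38.2 and 41.5 CPM in S. The change was 0.10 (SE 0.32, adjusted p = 0.890). Rnaseh2c was 55.7 and 47.6 CPM in G1 and 55.2 and 56.5 CPM in S. The change was 0.15 (SE 0.27, adjusted p = 0.789). The nucleotide supply genes Tk1, thymidine kinase, Dut, the dUTPase, and Dck, deoxycytidine kinase, were also called higher in S than in G1. Tk1 and Dut again had S against G2/M differences that did not pass, at -0.08 (SE 0.15, adjusted p = 0.876) and 0.18 (SE 0.18, adjusted p = 0.695), whereas Dck was also called higher in S than in G2/M, at 0.74 (SE 0.18, adjusted p = 0.00691).

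**Figure D3:**
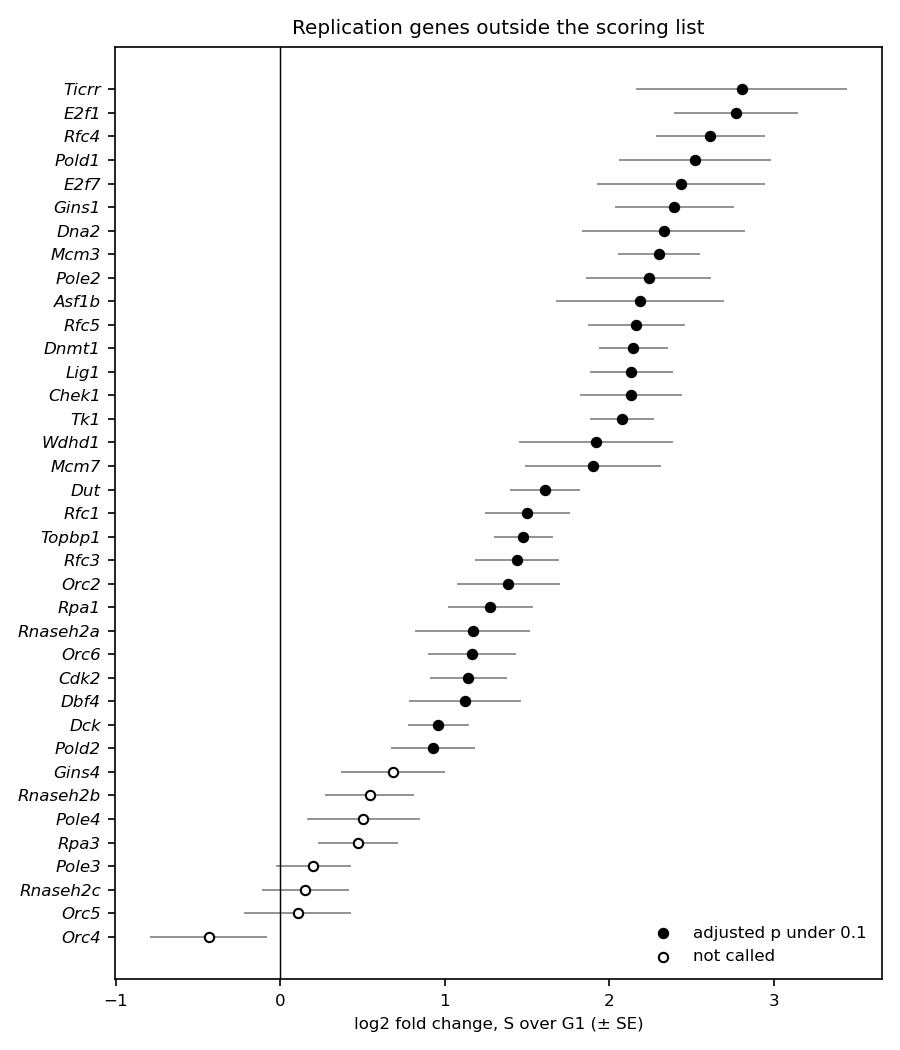
Log2 fold change from G1 to S by the deposited phase (x axis, with its SE as the bar) for 37 of the 38 tested replication genes outside the scoring list (y axis). Filled points passed the test (29 of the genes drawn) and open points did not, and Orc4 alone lies below 0.

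Over the 12 sums of plate, category and phase, the 5 genes outside the scoring list whose levels ranked most like those of Pcna were Lig1 (Spearman rho 0.965), Pole2 (Spearman rho 0.951), Dnmt1 (Spearman rho 0.944), Brca1 (Spearman rho 0.930) and Cdk2 (rho 0.923), of 5643 genes ranked. The 12 sums share 2 plates and the phases were scored partly with Pcna. Lig1, Pole2, Dnmt1 and Cdk2 are on the list of replication genes outside the score, and Brca1 is a repair gene.

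The promoters were read because the members rose together. RefSeq promoter windows (GRCm38.p6, 250 bases before to 50 after the start) were held for 30 of the 40 members. An E2F word (TTTCCCGC, TTTCGCGC, TTTGCCGC or TTTGGCGC on either strand) occurred in the windows of 12 of the 30 (40%), against 2.60% of 27025 genes. It occurred in 14 of 46 of the replication genes outside the score. A CHR word (TTTGAA or TTCGAA on either strand) occurred in 6 of the 30 (20%), against 21.7% of all genes. In the 100 bases around the start, 5 members held an E2F word (16.7%, against 0.955% of genes) and 3 a CHR word (10%, against 6.12%). By group, the chromatin genes held an E2F word in 5 of 8 windows and the licensing genes in 3 of 5, while no nucleotide supply window held either word. A match is a description of letters and not of binding.

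The promoters of the strongest and the weakest risers from G1 to S with an entry are shown for comparison, from 250 bases before to 30 after the start, 5′ to 3′ on the gene's strand in GRCm38.p6, with E2F and CHR words in capitals. Those of Cdc45 (chr16:18811943-18812222, minus strand) and Clspn (chr4:126556730-126557009, plus strand) stand for the strong risers and those of Cdca7 (chr2:72475969-72476248, plus strand) and Ubr7 (chr12:102757725-102758004, plus strand) for the weak ones.
Cdc45: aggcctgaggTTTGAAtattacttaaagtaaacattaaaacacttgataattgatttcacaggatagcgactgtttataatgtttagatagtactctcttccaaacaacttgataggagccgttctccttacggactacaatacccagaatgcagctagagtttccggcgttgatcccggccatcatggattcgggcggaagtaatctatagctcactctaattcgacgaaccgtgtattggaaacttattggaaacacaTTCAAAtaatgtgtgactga
Clspn: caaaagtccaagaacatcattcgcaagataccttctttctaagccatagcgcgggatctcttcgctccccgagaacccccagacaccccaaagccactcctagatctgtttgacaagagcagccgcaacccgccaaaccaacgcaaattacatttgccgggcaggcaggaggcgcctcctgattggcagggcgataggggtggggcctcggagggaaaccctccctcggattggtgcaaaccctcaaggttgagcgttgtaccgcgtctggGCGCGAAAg
Cdca7: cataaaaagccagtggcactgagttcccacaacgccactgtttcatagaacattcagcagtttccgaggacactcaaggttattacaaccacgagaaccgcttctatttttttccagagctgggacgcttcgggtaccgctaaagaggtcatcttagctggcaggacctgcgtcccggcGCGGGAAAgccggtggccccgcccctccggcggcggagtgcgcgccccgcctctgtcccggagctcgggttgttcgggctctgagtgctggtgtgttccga
Ubr7: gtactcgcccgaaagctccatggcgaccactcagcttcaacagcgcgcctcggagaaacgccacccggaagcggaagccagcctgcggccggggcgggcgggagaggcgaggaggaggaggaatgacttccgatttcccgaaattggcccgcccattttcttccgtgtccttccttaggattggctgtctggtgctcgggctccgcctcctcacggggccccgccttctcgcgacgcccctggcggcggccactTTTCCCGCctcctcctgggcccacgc
The Cdc45 window held 2 CHR words and 0 E2F words, and the other 3 held 1 E2F word and 0 CHR words each, so the words did not separate strong from weak risers in these 4 windows.

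The comparison of the sorted categories asked whether replication genes differ with the lipid droplet coat signal. Over all cells of a plate, 2 of the 40 members, Rrm2 and Rpa2, were called higher in high PLIN2-GFP NSPCs and 0 were called lower, against 0.886% and 1.26% of all genes tested. All 40 passed the filter. Rrm2 was 155.2 and 200.3 CPM in low and 246.99 and 263.7 CPM in high PLIN2-GFP NSPCs on plates 1 and 2. This was a log2 fold change of 0.53 (SE 0.14, adjusted p = 0.0151). The low and high sums of Rrm2 did not overlap, and the difference had the same direction on both plates. Rpa2, the subunit of the single-strand binding complex RPA, was 63.1 and 134.8 CPM in low and 111.8 and 174.9 CPM in high PLIN2-GFP NSPCs. The change was 0.55 (SE 0.17, adjusted p = 0.0704). For Rpa2 the plates differed more than the categories, so that the high sum of plate 1 lay below the low sum of plate 2, and high exceeded low on each plate. Rpa2 (chr4:132768332-132778752, plus strand) had 410.5 counts in all.

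Both calls depended on the fit. With the cells thinned to 5000 UMIs each, or without the plate block, neither gene was called (adjusted p = 0.284 and 0.996 for Rrm2, 0.575 and 0.996 for Rpa2, edgeR). In DESeq2 their unadjusted p was 0.0385 and 0.0858, with no adjusted p because its filter set both genes aside. On plate 1 the log2 ratios were 0.67 and 0.82 and on plate 2 0.40 and 0.38. The share of cells in each phase also differed between the same sums, within overlapping intervals, and a change in the share of S phase cells and in the RNA per cell cannot be told apart in them. The share in S was 22.1% (95% interval 14.9 to 31.4%) of low and 23.8% (95% interval 15.97 to 33.9%) of high cells on plate 1 and 25% (95% interval 16.4 to 36.1%) and 33.96% (95% interval 22.7 to 47.4%) on plate 2 (Wilson, counting error only). The share in G2/M was 26.3% (95% interval 18.5 to 35.97%) and 38.1% (95% interval 28.4 to 48.8%) on plate 1 and 31.9% (95% interval 22.3 to 43.4%) and 28.3% (95% interval 17.97 to 41.6%) on plate 2.

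The other 38 members did not pass the test. Of all 40, 6 were higher and 0 lower at an unadjusted p under 0.05, a level at which the share of all genes is not given. In fitted change, 23 lay above 0 and 17 below 0, with a range of -0.47 to 0.88. The median was 0.08 (all genes, -0.001), 0.23 on plate 1 and -0.04 on plate 2, so its direction was not shared by the plates. Atad2, named after its value was seen, lay just outside the call at 0.53 (SE 0.18, adjusted p = 0.112). Pcna was 363 and 432 CPM in low and 427 and 358 CPM in high PLIN2-GFP NSPCs. The change was -0.01 (SE 0.11, adjusted p = 0.984) with opposite directions on the plates. Rrm1 was 267.03 and 389 CPM in low and 337 and 351 CPM in high PLIN2-GFP NSPCs. The change was 0.09 (SE 0.12, adjusted p = 0.873), also with opposite directions. Nasp was 172.3 and 201.6 CPM in low and 182.8 and 171.1 CPM in high PLIN2-GFP NSPCs. The change was -0.07 (SE 0.15, adjusted p = 0.938). Mcm4 was 102.6 and 148.1 CPM in low and 140.9997 and 173.6 CPM in high PLIN2-GFP NSPCs. The change was 0.33 (SE 0.16, adjusted p = 0.405), with high above low on each plate. Among the role groups, licensing and helicase genes had a median change of 0.21, polymerase, clamp and fork genes 0.02, nucleotide supply 0.13, checkpoint and repair 0.15 and chromatin and histone supply -0.12. Of the 53 replication genes outside the score, 49 were tested and 0 called in edgeR, with 1 higher and 1 lower at an unadjusted p under 0.05.

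**Figure D4:**
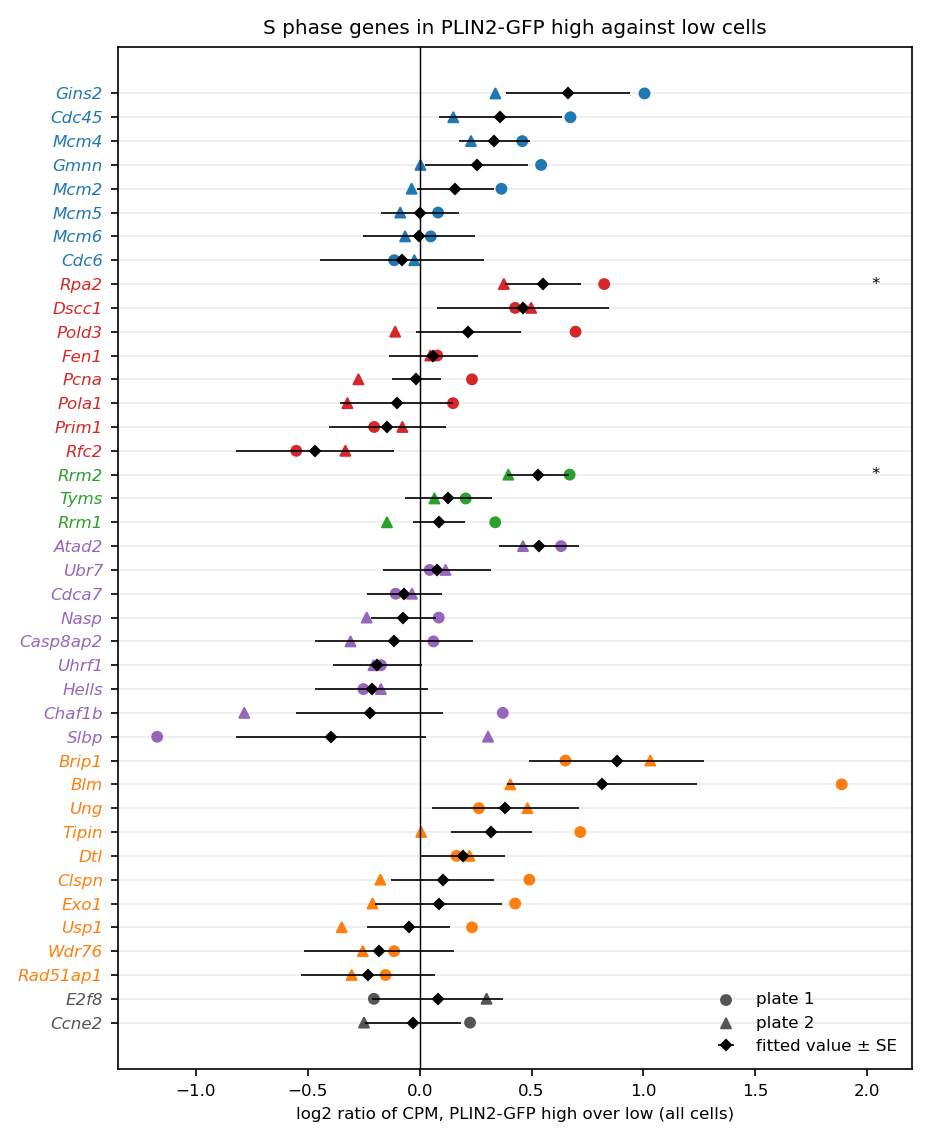
Log2 ratio of CPM in high over low PLIN2-GFP NSPCs (x axis) for the 40 members (y axis, coloured by role as in the phase plot), on plate 1 (circles) and plate 2 (triangles), with the fitted value and its SE (diamonds and bars). Asterisks mark Rrm2 and Rpa2, the genes that passed the test, whose plates both lie above 0.

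Among cells of the same plate and deposited phase, 38 members were tested and 0 were called for the mean of the phases in edgeR, against 1.82% of all genes called higher and 2.09% lower. There were 3 higher and 0 lower at an unadjusted p under 0.05 (share of all genes not given), and the median was -0.005. DESeq2 gave an adjusted p to 11 of the members and called 0 of these, with 0 members at an unadjusted p under 0.05. Rrm2 changed by 0.28 (SE 0.15, adjusted p = 0.438), with a 95% interval of -0.02 to 0.58, and Rpa2 by 0.44 (SE 0.18, adjusted p = 0.245), with an interval of 0.08 to 0.80. Neither interval excludes the difference seen over all cells. With the phase scored without the gene, the values were 0.25 (adjusted p = 0.507) and 0.51 (adjusted p = 0.143), and 0 of 39 tested members were called.

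Within single phases, edgeR called 0 members in any of the 3 phases, against 0.276%, 1.04% and 0.6% of all genes, and 0 for a difference of the category effect between phases, against 0.178% of all genes. At an unadjusted p under 0.05, 1 member was lower in G1, 4 were lower and 0 higher in S, 5 were higher and 0 lower in G2/M, and 7 differed between phases. The share of all genes at this unadjusted level is not given, so whether these counts exceed it cannot be told here. The deposited phase uses the members themselves, and with the phase scored without the gene 1 was higher and 1 lower in G1, 2 were lower and 0 higher in S, and 3 were higher and 0 lower in G2/M, of 39 tested. For G1, S and G2/M in turn, the median log2 fold change of the tested members was 0.12, -0.23 and 0.22, against 0.01, -0.01 and -0.005 over all genes, and 26 of the 38 lay below 0 in S. The member nearest to a call was Pcna in S. Pcna was 897 and 773 CPM in low and 670.04 and 514 CPM in high PLIN2-GFP NSPCs of S on plates 1 and 2, lower in high on both plates without overlap. This was a log2 fold change of -0.50 (SE 0.15, adjusted p = 0.114). In G2/M it was 321 and 382 CPM in low and 494 and 402 CPM in high cells. The change was 0.34 (SE 0.18, adjusted p = 0.651), and in G1 177.4 and 195.01 CPM in low and 222.5 and 156.6 CPM in high cells. The change was 0.08 (SE 0.22, adjusted p = 0.978). The difference of these effects between phases had adjusted p = 0.269. With DESeq2 size factors in edgeR the difference in S just passed (adjusted p = 0.0997). With library size alone it did not (0.220), and with the phase scored without Pcna it was -0.53 (adjusted p = 0.140).

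Rrm1 and Nasp also had lower values in high cells of S on both plates, 478 and 557 CPM in low and 382 and 404 CPM in high cells for Rrm1 and 372 and 341 CPM in low and 291.5 and 267.01 CPM in high cells for Nasp. Neither passed the test, at -0.40 (SE 0.17, adjusted p = 0.406) and -0.35 (SE 0.20, adjusted p = 0.636). With Rrm1 left out of the score its value in S was -0.28. Rrm2 and Mcm4 lay in the other direction in S, 378 and 318 CPM in low and 424 and 397 CPM in high cells and 218.4 and 261.3 CPM in low and 299.1 and 293.7 CPM in high cells, without passing the test. In G2/M the smallest p belonged to Gmnn, named for this, at 1.21 (SE 0.41, adjusted p = 0.236), and the next to Rrm2, which was 211.9 and 209.8 CPM in low and 319 and 322 CPM in high cells. The change was 0.60 (SE 0.21, adjusted p = 0.290). Rpa2 was 153.5 and 246.2 CPM in low and 200.6 and 290.4 CPM in high cells in S and 76.1 and 108.7 CPM in low and 120.1 and 151.9 CPM in high cells in G2/M, above low on each plate in both phases.

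**Figure D5:**
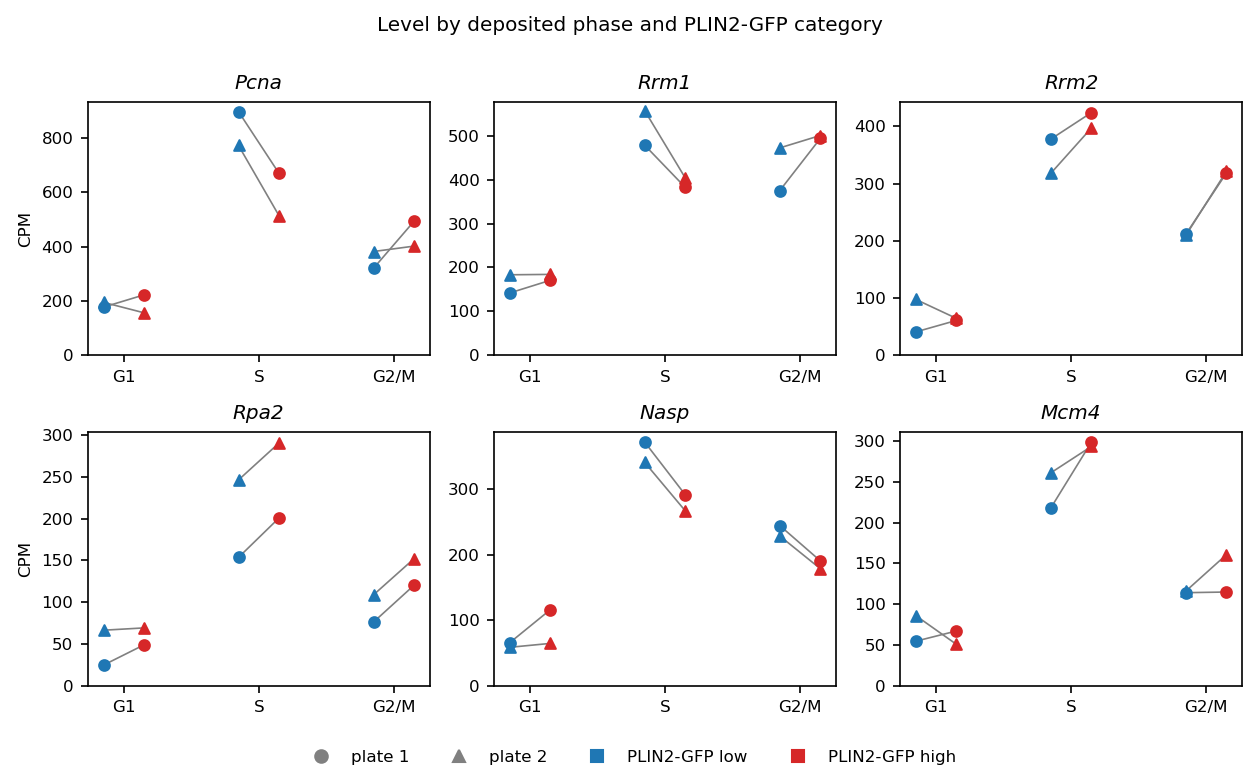
CPM (y axis) of 6 members in low (blue) and high (red) PLIN2-GFP NSPCs by deposited phase (x axis), on plate 1 (circles) and plate 2 (triangles), with lines joining the categories of a plate. On both plates Pcna is lower in high than in low in S and Rrm2 is higher in S and G2/M, and 0 of these differences passed the test.

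Of the replication genes outside the score, 42 were tested within phase and 1 was called, in S, where 1.04% of all genes tested were called. Rnaseh2b, a subunit of ribonuclease H2, was 135.8 and 94.7 CPM in low and 45.4 and 46.7 CPM in high PLIN2-GFP NSPCs of S on plates 1 and 2, lower in high without overlap. This was a log2 fold change of -1.28 (SE 0.37, adjusted p = 0.0729). The sums held only 23 and 25 counts in low and 12 and 14 in high cells. In DESeq2 Rnaseh2b was not called (adjusted p = 0.9997). Over all cells it was 78.9 and 88.6 CPM in low and 57.4 and 60.5 CPM in high PLIN2-GFP NSPCs. The change was -0.50 (SE 0.22, adjusted p = 0.312), and the difference of its effect between phases had adjusted p = 0.917. In S, the 42 genes had a median change of -0.24, beside -0.23 for the members.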

How the data were processed

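Single NSPCs on 2 plates were sequenced by SORT-seq. The authors assigned reads with Salmon (alevin, per the submitters' processing notes, versions not given in the sources used here) to GRCm38 and deposited estimated counts of UMIs per gene and cell, not normalised. They removed doublets and cells by mitochondrial percent before deposit. The paper gives a cut of under 20%, but 11 deposited cells lay above 20% by the deposited percent, with a maximum of 23.1%. The authors also deposited the cell cycle scores and phases from Seurat, the category, well row, mitochondrial percent and the count of genes detected per cell, all used as deposited. 87.1% of counts above 0 were whole (tolerance 1e-06). Each column of the count table, which has no header, was matched to the 1 cell of the per-cell table that has its total count and its count of detected genes. 59 cell barcodes occurred on both plates, which used the same primer set.

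Counts were summed over cells per plate and category (4 sums, 1 residual degree of freedom) and per plate, category and phase (12 sums), rounded, and tested with edgeR 4.0.16 (R 4.3.3, quasi-likelihood, TMM, filterByExpr, Benjamini-Hochberg over all genes tested, called at adjusted p under 0.1). The plate was a block because both categories were sorted onto each plate. Deviations of the low and high sums of a plate correlated at 0.300 over 8348 genes. Within phase, each plate and phase was a block. For phase profiles, plate and category were covariates, and cells were scored again with Seurat 5.3.0 without the gene. With all genes kept, this scoring gave 97.7% of cells the deposited phase, and leaving out a member changed at most 9 cells. Genes were named if called between categories, among the 5 members with most counts, or, from 100 counts, among the 4 highest and 4 lowest changes from G1 to S or the 3 highest and 3 lowest to G2/M. Of replication genes outside the score, those called between categories and the 5 largest and 3 smallest changes from G1 to S were named. The scripts were tested on simulated data. The alternatives were another normalisation, no filter, no block, DESeq2 1.42.0, thinned cells, each plate left out, cells near the phase cut left out and, chosen after seeing the data, cells over 20% mitochondrial counts left out and phases scored without the gene within categories. The members and lists were chosen with earlier results of these data known. Intervals of shares of cells cover counting error only. Those of fold changes were taken from the edgeR SE with a normal quantile and so rest on the spread between sums. With few sums they may be too narrow. Results of 1 replication gene outside the score and of 1 cell type marker are not reported here.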

Additional observations from a re-analysis of the deposited data

How the results depend on the processing

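With 2 plates of 1 line, the comparison of the categories over all cells had 1 residual degree of freedom, and with 1 plate it had none, so each plate gave a value without a test. No result changed direction past the threshold under an alternative that was run. Over all cells 0.886% of genes tested were called higher and 1.26% lower, against 0 and 0.012% without the replicate block, 0.0359% and 0.0958% in DESeq2, 0.464% and 0.648% without a filter and 0.0708% and 0.0885% with thinned cells. With library size alone 1.83% were called higher, so that the share of calls that were higher went from 41.3% to 64.3%. Of the 2 members called, 0 were called without the replicate block or with thinned cells and 1 (Rrm2) without a filter, and DESeq2 called 0 members but gave neither of the 2 an adjusted p. For the mean within phase 1.82% were called higher and 2.09% lower, against 0.487% and 0.454% without the replicate block, 0.146% and 0.211% in DESeq2, 0.676% and 0.648% without a filter, 1.13% and 1.13% with phases scored on thinned cells, and with 1 plate left out 0.0183% to 0.485% and 0.0367% to 0.752%. Without the 41 cells near the phase cut 1.16% were called lower, and with library size alone 1.18%, which took the share of calls that were higher from 46.5% to 69.3%. In S, 1 member (Pcna) was called with DESeq2 size factors. With thinned cells 17 members were tested, and 16, 11 and 8 were called higher in S than in G1, in G2/M than in G1 and in S than in G2/M, as were 10, 7 and 4 of the 13 tested genes outside the score. With 1 plate left out, 17 to 20 members were called higher in G2/M than in G1 and 14 to 16 in S than in G2/M, and of the genes outside the score 12 to 15 and 4 to 5. Fewer samples or genes entered these fits. Leaving out cells over 20% mitochondrial counts, chosen after seeing the data, moved no share of calls by more than 1.5 times. It brought Rnaseh2b past the threshold for the mean within phase (adjusted p = 0.0900, edgeR, from 0.102).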
